A study of Mus musculus with 8 samples.

Results

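The genes described here are 46 genes of DNA replication and mitosis, 19 of replication and 27 of mitosis, among the 22458 genes named on the array. They were chosen by name, with earlier results of these data known, as genes that a cell expresses while it copies its DNA and divides. Each gene was represented by its probe well above background with the highest mean signal. Of the 46 genes, 43 (18 of replication and 25 of mitosis) were well above background on at least 4 of 8 arrays and entered the test with 13226 genes in all. Ccne2, a cyclin of the entry into replication, and Aurkb, a mitotic kinase, were not well above background on any array. Cenpf, a protein of the kinetochore by which chromosomes attach to the spindle, was above it on 1 macrophage array.

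The study used C57BL/6 bone marrow chimeric mice that underwent 30 min of focal brain ischemia by occlusion of the middle cerebral artery and then 7 days of reperfusion. From the ischemic brain of each of 4 animals, A to D, GFP-positive cells were sorted as resident microglia and RFP-positive cells as invading macrophages, which gave 4 arrays of each and 8 in all. All groups thus shared the ischemia, the chimerism and the time, and neither a sham-operated nor a blood sample is part of the comparison. Replicates 1 to 4 are animals A to D. The labels give no cell number or RNA input, the cDNA of both groups went through a global PCR amplification, and a sorted fraction can still hold other cells.

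A cell that divides first copies its DNA: a helicase of Mcm proteins opens each origin, DNA polymerases held by the clamp Pcna copy the strands, and Rrm1, Rrm2, Tyms and Tk1 supply nucleotides. It then condenses and separates its chromosomes under cyclin B, Plk1 and Aurora kinases and a checkpoint of Bub1, Bub1b and Ttk, and finally divides with Kif23, Racgap1, Anln and Prc1. E2F factors switch on many replication genes, and complexes that bind the CHR element, often beside CCAAT boxes, keep many mitosis genes silent until late in the cycle. Microglia and monocyte-derived macrophages are both known to be able to divide in injured brain.

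Promoter letters are shown first because replication and mitosis genes differed in them, and the arrays did not measure them. RefSeq promoters (GRCm38.p6, 250 bases before to 50 after the start) matched 40 of the 46 genes, with 21 promoters of 16 replication genes and 25 of 24 mitosis genes. The E2F letters TTTNNCGC, on either strand, occurred in 9 of the 21 replication promoters (42.9%) and in 2 of the 25 mitosis promoters (8%), against 5.17% of all 32851 promoters. The CHR letters TTTGAA, on either strand, occurred in 2 of the 21 (9.52%) and 19 of the 25 (76%), against 17.9%. CCAAT, on either strand, occurred in 11 (52.4%) and 21 (84%), against 37.4%. In further lists described below (other replication, other mitosis and G1 control genes), the E2F letters occurred in 31.8%, 22.2% and 38.5% of promoters. The CHR letters occurred there in 15.9%, 53.7% and 30.8%, so the E2F letters were not particular to replication genes. A match describes the letters only and shows no bound factor.

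Below are stretches of 30 bases around the E2F letters of 5 replication genes, chosen after the matches were seen, with the matched letters in capitals, 5′ to 3′ on the gene's strand. In Mcm5 and Mcm6, matches on both strands overlap and the capitals cover both. In Mcm7 and Cdc6 the match is on the opposite strand.
Mcm5 (helicase, chr8:75109344-75109373): agcgccaagaacTTTCGCGCCAAAacgtcc
Mcm6 (helicase, chr1:128359798-128359827): atggcgtatgctTTTGGCGCGAAAagtgcg
Mcm7 (helicase, chr5:138172031-138172060): taatttcgaaccGCGGGAAAcagggtgtcc
Cdc6 (loads the helicase, chr11:98908001-98908030): ggccggtggagaGCGGGAAAtcgcctgggg
Uhrf1 (maintains DNA methylation at replication, chr17:56303269-56303298): cgccccacttgcTTTCTCGCttcccgccac

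The CHR letters of 5 mitosis genes and of Mcm2, 1 of the 2 replication genes that carry them, are shown in the same way. The Cdc20 stretch also has CCAAT in capitals, and in Ube2c and Kif11 the CHR match is on the opposite strand.
Cdc20 (activates the anaphase ligase, chr4:118437344-118437373): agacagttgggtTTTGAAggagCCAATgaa
Ube2c (ubiquitin-conjugating enzyme of the same ligase, chr2:164769888-164769917): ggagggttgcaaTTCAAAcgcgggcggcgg
Kif11 (spindle motor, chr19:37376351-37376380): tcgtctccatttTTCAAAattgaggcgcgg
Mki67 (coat of mitotic chromosomes, chr7:135716478-135716507): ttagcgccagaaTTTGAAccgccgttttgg
Prc1 (bundles the spindle midzone, chr7:80294434-80294463): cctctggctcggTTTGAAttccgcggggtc
Mcm2 (helicase, chr6:88898833-88898862): agggctcagcctTTTGAAagctgtgggcgg

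Before the results, 1 array has to be described. The arrays of microglia correlated with each other at 0.937 to 0.962 over the genes tested, and macrophage replicates 1, 3 and 4 at 0.940 to 0.960, whereas macrophage replicate 2 (animal B) correlated with those 3 at 0.828 to 0.867. It also carried the highest endothelial marker signal, as given further on, and the counts of members and the main differences are therefore given with and without it. The arrays lay on 2 slides, 1 with 2 microglia and 3 macrophage arrays and 1 with 2 and 1. The labelled cell types held against their markers: 7 of 10 microglia markers were lower in macrophages and 6 of 9 monocyte and macrophage markers, such as Ccr2 (difference 2.47, limma adjusted p = 0.000757), were higher. F10, the brightest probe of that list, was not among the 6 and differed by -0.29. Over all genes tested, 396 were higher (2.99%) and 567 lower (4.29%) in macrophages at an adjusted p under 0.05 (limma, Benjamini-Hochberg adjustment), with a median difference of 0.04 on the log2 scale.

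Mcm2, Cdca8 and Kif23 were higher in invading macrophages than in resident microglia, by 2.41-fold, 3.07-fold and 2.38-fold. These were 3 of the 43 members tested (6.98%), beside the background of 2.99% of all genes called higher, and no member was called lower. The direction was wider than the calls: 42 of the 43 had a higher mean in macrophages (52.4% of all genes did). In either direction, 20 of the 43 (46.5%) had an unadjusted limma p under 0.05, as had 24.5% of all genes. Tyms, the member with a lower mean, was among these 20. The median difference was 0.99 for the 18 replication genes (17 higher) and 1.13 for the 25 mitosis genes (25 higher), in log2 units of macrophages minus microglia. Since the arrays measure bulk RNA, 3 sources cannot be told apart. These are a larger share of dividing cells, more of these transcripts per dividing cell, and dividing cells of another type in the sorted fraction.

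**Figure D1:**
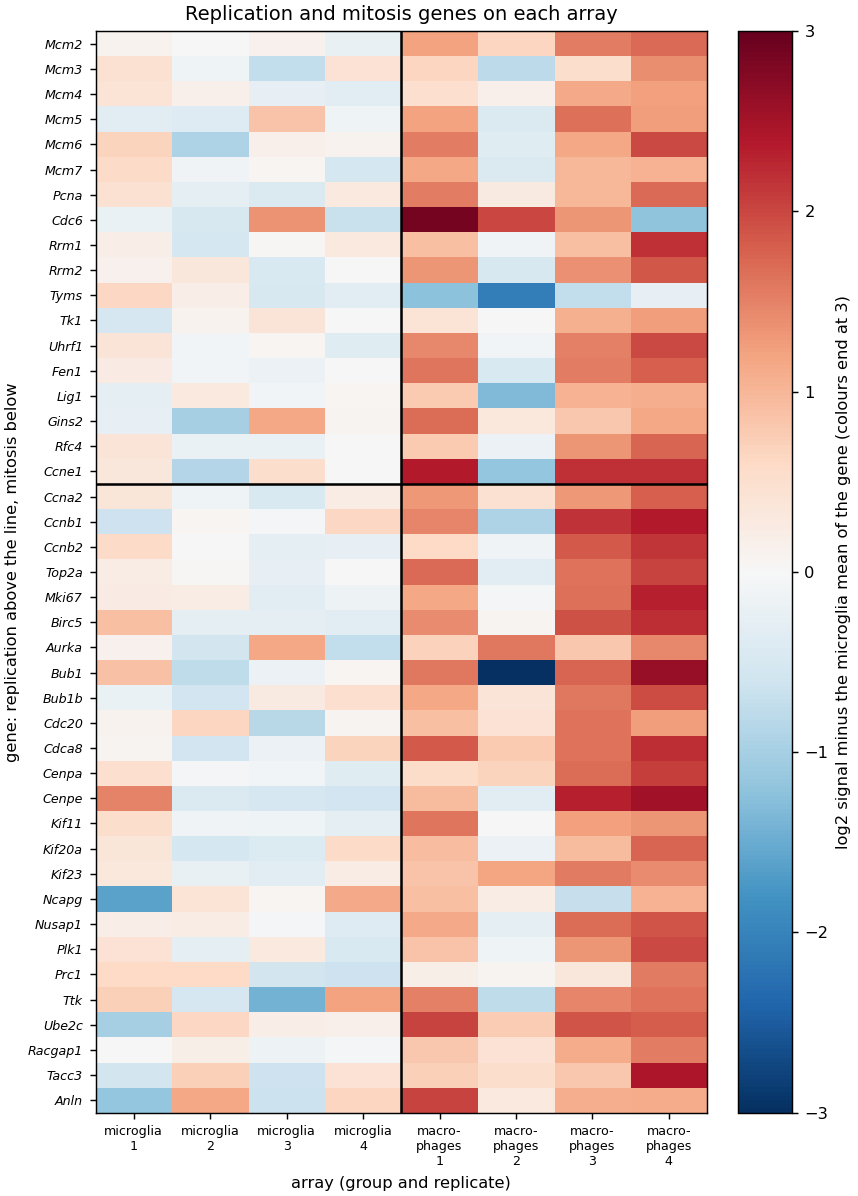
Heat map of the 43 members tested (vertical axis, replication genes above the black line and mitosis genes below) on the 8 arrays (horizontal axis). Colour is the log2 signal minus the gene's mean over the 4 microglia arrays, red for higher and blue for lower, with colours ending at 3; macrophage replicates 1, 3 and 4 are red for most genes, and macrophage replicate 2 is pale or blue for most.

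Values on single arrays below are log2 signals relative to the array's 75th percentile, so 0 is that percentile, and they are comparable for 1 probe across arrays but not between probes. Mcm2, a subunit of the helicase (probe at chr6:88833619-88833678 in build mm9), measured 0.012, -0.12, 0.026 and -0.31 in microglia of animals A, B, C and D and 1.11, 0.54, 1.43 and 1.60 in their macrophages. All 4 macrophage arrays lay above all 4 microglia arrays, with animal B the lowest of the macrophages. The difference was 1.27 ± 0.27 (SE, n = 4 arrays a group; limma adjusted p = 0.0270), and it was no longer called with the animal as a block (limma adjusted p = 0.0749).

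Cdca8, a subunit of the chromosomal passenger complex that guides chromosome attachment and cytokinesis (probe at chr4:124599245-124599304, mm9), measured 2.62, 1.98, 2.37 and 3.21 in microglia and 4.37, 3.34, 4.18 and 4.76 in macrophages. The groups did not overlap, although macrophage replicate 2 stood only just above microglia replicate 4. The difference was 1.62 ± 0.38 (SE, n = 4 a group; limma adjusted p = 0.0366), and it was called with the animal as a block too (limma adjusted p = 0.0244). Its second probe, also above background on every array, differed by 1.46 in the same direction.

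Kif23, a kinesin of the central spindle needed for cytokinesis (probe between positions 61767492 and 61767732 of chromosome 9, mm9), measured 2.01, 1.49, 1.38 and 1.94 in microglia and 2.57, 2.89, 3.26 and 3.12 in macrophages. The groups did not overlap, and here animal A and not animal B gave the lowest macrophage array. The difference was 1.25 ± 0.26 (SE, n = 4 a group; limma adjusted p = 0.0230), with an adjusted p of 0.0801 with the animal as a block in limma. With that block the members called were Cdca8 and Bub1b, a kinase-like protein of the spindle checkpoint (difference 1.27; limma adjusted p = 0.0434 with the block and 0.0859 without), against a background of 1.76%.

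The 3 calls were also set against other ways of processing the arrays. Mcm2, Cdca8 and Kif23 were called by limma with each of 7 settings. They were the only members called with quantile normalization (background 3.24%) and with the authors' deposited table (3.22%). Ube2c joined them with median centring (5.16%) and with probes above background on all 8 arrays (3.68%), Ccna2 with the percentile over probes detected on all arrays (2.59%) and Racgap1 with the mean of all passing probes (3.25%). With normexp background both Ube2c and Racgap1 joined them (4.15%). With no filter on dim probes Kif23 alone was called (1.06%).

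**Figure D2:**
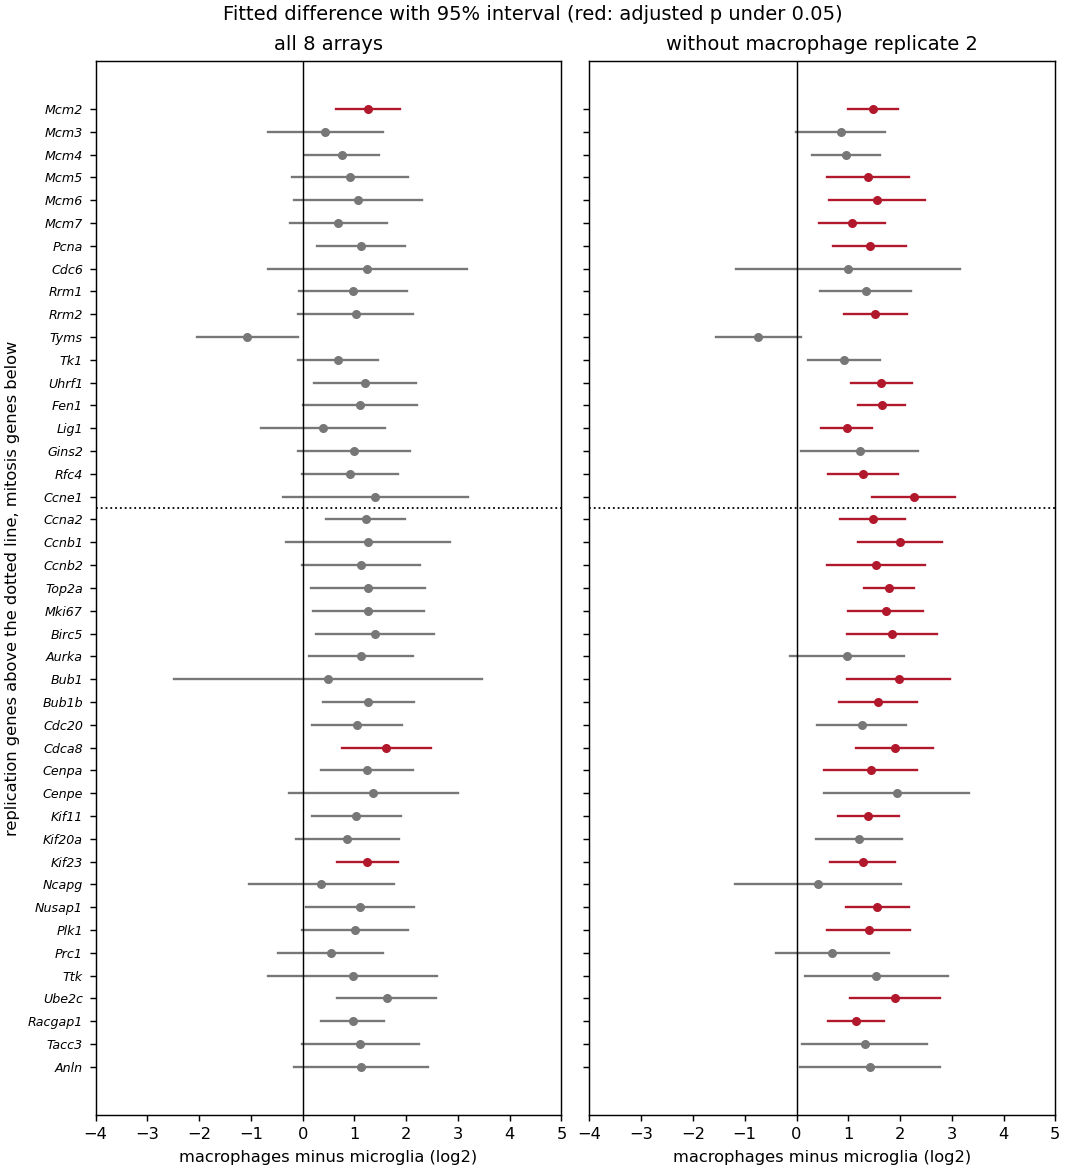
Fitted difference, macrophages minus microglia (horizontal axis, log2), for each member tested (vertical axis), with points for the estimate and bars for the 95% interval, over all 8 arrays and without macrophage replicate 2. Red marks an adjusted p under 0.05: 3 genes over all arrays and 27 without macrophage replicate 2, with Tyms the single estimate below 0 in both.

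Apart from Mcm2, the replication genes did not pass the test over all 8 arrays, and most of them showed 1 recurring shape. Macrophage replicates 1, 3 and 4 lay above all microglia for 15 of the 18 tested (83.3%, beside 20.0% of all genes). Replicate 2 lay below the highest microglia array for 16 of the 18 (88.9%), beside 75.4% of all genes, so this part was common to most genes on that array. Mcm5, another helicase subunit, measured -2.22, -2.25, -1.01 and -2.01 in microglia and -0.66, -2.30, -0.21 and -0.62 in macrophages. Macrophage replicates 1, 3 and 4 stood above every microglia array and replicate 2 below every one, and the difference was 0.92 ± 0.49 (SE, n = 4 a group; limma adjusted p = 0.288). The other helicase subunits Mcm3, Mcm4, Mcm6 and Mcm7 differed by 0.44, 0.76, 1.07 and 0.69.

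Pcna, the sliding clamp, measured 0.50, -0.26, -0.40 and 0.33 in microglia and 1.58, 0.32, 1.04 and 1.73 in macrophages. Only replicate 2 fell within the microglia range (difference 1.13 ± 0.37, SE, n = 4 a group; limma adjusted p = 0.105). Rfc4, a subunit of the clamp loader, differed by 0.92 ± 0.41, and Fen1, the nuclease that trims Okazaki fragments, by 1.12 ± 0.48 (SE). Lig1, the ligase that joins those fragments, differed by 0.39 ± 0.52, and Gins2, a helicase cofactor, by 0.996 ± 0.48. Uhrf1, which maintains DNA methylation on the new strands, differed by 1.21 ± 0.43. Apart from Lig1, these estimates were of similar size, and none passed the test.

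Among the genes of nucleotide supply, Rrm2, the regulated subunit of ribonucleotide reductase, measured -2.78, -2.56, -3.36 and -2.92 in microglia and -1.58, -3.38, -1.53 and -1.03 in macrophages. Again replicate 2 was the one macrophage array not above the microglia (difference 1.02 ± 0.49, SE, n = 4 a group; limma adjusted p = 0.239). Its partner Rrm1 differed by 0.97 ± 0.46. Tk1, the salvage thymidine kinase, differed by 0.68 ± 0.34 at its brightest probe and by -0.81 and 0.38 at its other passing probes, so its probes disagreed in sign.

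Tyms, thymidylate synthase, was the 1 member with a lower mean in macrophages. It measured -0.74, -1.15, -1.83 and -1.70 in microglia and -2.58, -3.42, -2.09 and -1.60 in macrophages. The groups overlapped through animal D, whose macrophage array was the highest of its group. The difference was -1.07 ± 0.43 (SE, n = 4 a group; limma adjusted p = 0.168), and -0.74 without macrophage replicate 2 (limma adjusted p = 0.188).

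At the entry into replication, Ccne1, the cyclin E that activates Cdk2, measured -2.14, -3.36, -1.95 and -2.49 in microglia and -0.099, -3.64, -0.28 and -0.29 in macrophages. Replicates 1, 3 and 4 were close together and far above the microglia, while replicate 2 was the lowest of all 8 arrays (difference 1.41 ± 0.78, SE, n = 4 a group; limma adjusted p = 0.307). The second passing probe of Ccne1 differed by only 0.54. Cdc6, which loads the helicase at origins, measured -4.96, -5.26, -3.43 and -5.44 in microglia and -1.90, -2.76, -3.44 and -5.98 in macrophages. It was well above background on 1 microglia array and 3 macrophage arrays, did not follow the shape of the others, and passed the filter mostly through the macrophages (limma adjusted p = 0.405).

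**Figure D3:**
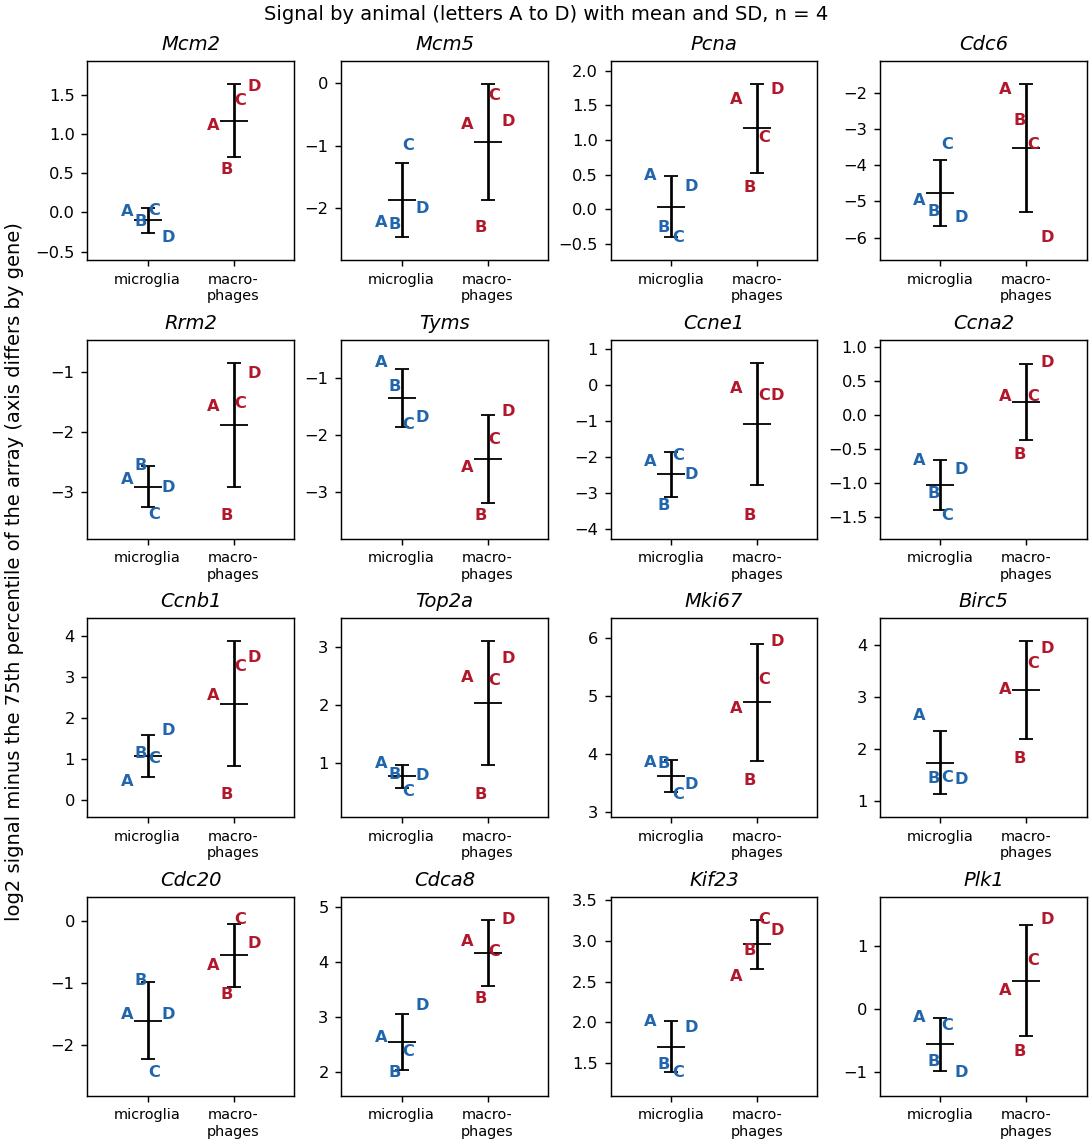
Log2 signal relative to the array's 75th percentile (vertical axis, different range in each panel) of the members described array by array, for microglia and macrophages. Letters are animals A to D, and bars give the mean and SD (n = 4 arrays a group). The letter B of the macrophages lies within or below the microglia in most panels. That array lay below the highest microglia array for 75.4% of all genes.

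Of the mitosis genes, 2 of 25 were called, and macrophage replicate 2 was the lowest macrophage array for all but Kif23, Cenpa, Aurka and Ncapg. Ccna2, cyclin A, which acts from replication to the start of mitosis, measured -0.67, -1.15, -1.48 and -0.81 in microglia and 0.27, -0.57, 0.28 and 0.77 in macrophages. These groups did not overlap, yet the gene missed the threshold (difference 1.22 ± 0.33, SE, n = 4 a group; limma adjusted p = 0.0633). Ccnb1, cyclin B of mitotic entry, measured 0.47, 1.14, 1.03 and 1.71 in microglia and 2.54, 0.15, 3.25 and 3.46 in macrophages. Replicate 2 was the lowest of all 8 arrays and the others exceeded every microglia array (difference 1.27 ± 0.69, SE, n = 4 a group; limma adjusted p = 0.300).

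Top2a, the topoisomerase that untangles chromosomes, measured 0.995, 0.80, 0.52 and 0.79 in microglia and 2.47, 0.47, 2.41 and 2.80 in macrophages. Mki67, the antigen Ki-67 used to mark dividing cells, measured 3.86, 3.83, 3.30 and 3.47 in microglia and 4.78, 3.55, 5.28 and 5.95 in macrophages. In both genes replicates 1, 3 and 4 were above all microglia and replicate 2 was not. The differences were 1.26 ± 0.48 for Top2a (limma adjusted p = 0.153) and 1.27 ± 0.47 for Mki67 (limma adjusted p = 0.142), each with n = 4 a group. The second Mki67 probe differed by 1.32.

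Birc5, survivin, a partner of Cdca8 in the passenger complex, measured 2.64, 1.43, 1.45 and 1.42 in microglia and 3.14, 1.82, 3.65 and 3.94 in macrophages. Microglia replicate 1 stood apart from the other microglia and above macrophage replicate 2, so the groups overlapped (difference 1.41 ± 0.50, SE, n = 4 a group; limma adjusted p = 0.127). Both further probes of the gene differed by 1.15 and 1.44. Plk1, a kinase of mitotic entry and spindle assembly, measured -0.14, -0.83, -0.27 and -1.02 in microglia and 0.30, -0.68, 0.77 and 1.42 in macrophages. Here too replicate 2 alone lay within the microglia range (difference 1.01 ± 0.45, SE, n = 4 a group; limma adjusted p = 0.206).

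Cdc20, the activator of the ligase that starts anaphase, measured -1.51, -0.97, -2.45 and -1.52 in microglia and -0.72, -1.18, 0.015 and -0.36 in macrophages. Macrophage replicate 2 was below microglia replicate 2, the other array of animal B (difference 1.05 ± 0.38, SE, n = 4 a group; limma adjusted p = 0.132). Ube2c, which works with the same ligase, differed by 1.62 ± 0.42 with groups that did not overlap (limma adjusted p = 0.0531). Its second probe, also above background on every array, differed by only 0.72. Racgap1, the partner of Kif23 in the central spindle, differed by 0.97 ± 0.27 at its brightest probe (limma adjusted p = 0.0670) and by 1.63 at another, where the adjusted p in a limma fit of all probes was 0.0319.

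The remaining mitosis genes differed by 0.36 (Ncapg, a condensin subunit) to 1.37 (Cenpe, a kinetochore motor) without passing the test. The spindle motors Kif11 and Kif20a differed by 1.04 ± 0.38 and 0.86 ± 0.44, and the spindle proteins Nusap1, Tacc3 and Prc1 by 1.11 ± 0.46, 1.12 ± 0.50 and 0.54 ± 0.44 (SE). Ccnb2, the other cyclin B, differed by 1.13 ± 0.50, the centromeric histone Cenpa by 1.24 ± 0.39 and the checkpoint kinase Ttk by 0.97 ± 0.71. All of these had the direction of Cdca8 and Kif23 over all 8 arrays, and Prc1 turned it within the smaller slide (-0.42). Bub1, a checkpoint kinase, differed by 0.48 ± 1.31, since macrophage replicate 2 was at -6.44 and below background there. Aurka, a kinase of the spindle poles, was above background on 2 microglia and 4 macrophage arrays, and Anln, a scaffold of the cleavage furrow, and Ncapg were not above it on 1 and 2 of the 8 arrays. Aurka and Anln differed by 1.13 ± 0.44 and 1.14 ± 0.57. The other probes of members gave the same direction in 12 of 13 cases, with the Tk1 probe as the exception.

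Macrophage replicate 2 was the lowest macrophage array for 38 of the 43 members (17 of 18 replication and 21 of 25 mitosis genes), compared with 49.7% of all genes tested. It lay below the highest microglia array for 34 of the 43 (79.1%), a share near the 75.4% of all genes. All 4 macrophage arrays were above all 4 microglia arrays for 7 members, Mcm2, Ccna2, Cdca8, Cenpa, Kif23, Ube2c and Racgap1 (16.3%), beside 8.43% of all genes. Macrophage replicates 1, 3 and 4 were above all microglia for 34 members (79.1%; 15 replication and 19 mitosis genes), beside 20.0% of all genes. Replicate 4 was the highest macrophage array for 32 of the 43, compared with 26.5% of all genes.

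Without macrophage replicate 2, 27 of the 43 members (62.8%) were called higher in macrophages, 11 of replication and 16 of mitosis, beside a background of 9.44% of all genes higher and 7.30% lower. The 27 included Mcm2, Cdca8 and Kif23. Ccne1 had the largest difference among them, 2.26 ± 0.35 (SE, n = 4 and 3; limma adjusted p = 0.00548), followed by Ccnb1 with 2.0 ± 0.35 (limma adjusted p = 0.00930). Top2a differed by 1.78 ± 0.21 (limma adjusted p = 0.00179), Mki67 by 1.72 ± 0.31 (limma adjusted p = 0.0106) and Birc5 by 1.84 ± 0.37 (limma adjusted p = 0.0158). Mcm5, Pcna and Rrm2 passed too, with differences of 1.37, 1.41 and 1.52, and so did Plk1, whereas Cdc20 (limma adjusted p = 0.0549), Cdc6 and Tyms did not.

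The number of calls thus depended on this array. With any other single array left out, limma called no replication gene and 0 or 1 mitosis gene, with 0 to 11 of the replication and 0 to 16 of the mitosis genes as the range over all 8 such fits. The 7 other backgrounds were 2.04%, 1.27%, 1.47% and 1.35% of all genes without microglia replicates 1 to 4, and 1.38%, 1.50% and 1.93% without macrophage replicates 1, 3 and 4. Kif23 was called in 3 of the 8 fits that each left out 1 array, Cdca8 in 2 and Mcm2 in 1, with adjusted p-values of up to 0.0763, 0.107 and 0.0842. The median differences moved less than the calls, between 0.76 and 1.31 for replication and 0.95 and 1.47 for mitosis genes. Leaving out replicate 2 was done because it stood apart from the other macrophages over all genes, and its label gives no reason to drop it.

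**Figure D4:**
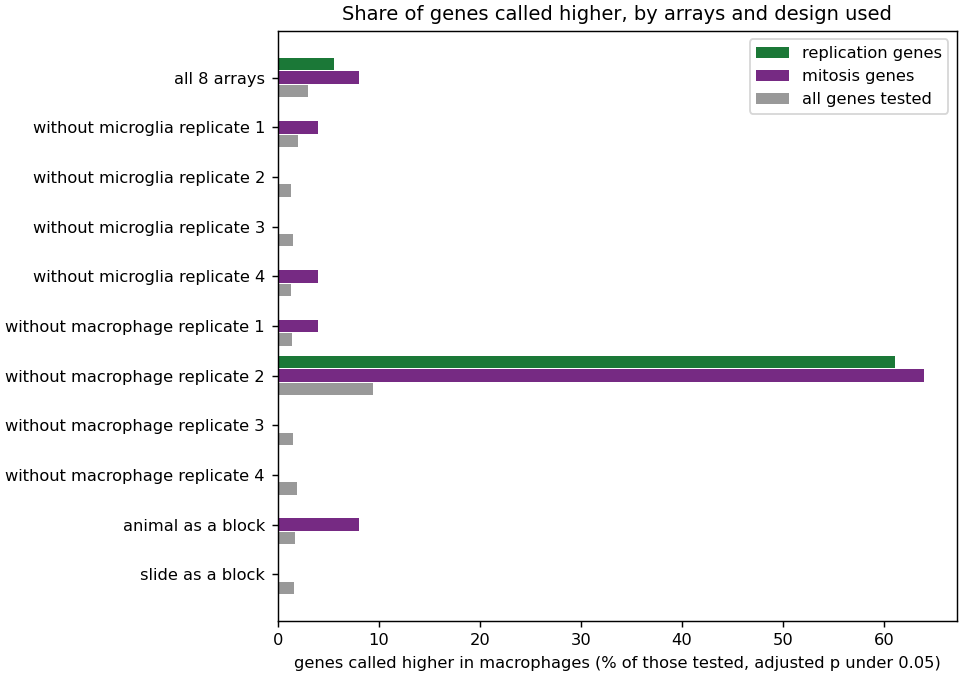
Share of genes called higher in macrophages (horizontal axis, % of those tested, adjusted p under 0.05) for replication genes, mitosis genes and all genes tested, by the arrays and design used (vertical axis). The bars of the members are long only without macrophage replicate 2, where 11 of 18 and 16 of 25 members were called beside 9.44% of all genes.

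Within animals, the median difference of macrophages minus microglia over replication genes was 1.05 in animal A, -0.025 in B, 1.19 in C and 1.56 in D. Over mitosis genes it was 0.80, 0.098, 1.74 and 1.76. Animals A, C and D thus moved together and animal B did not, while over all genes the 4 medians were 0.066, -0.12, 0.13 and 0.083. Animal B was also the only one with its arrays on different slides, microglia on the smaller and macrophages on the larger. For that animal a difference between slides and one between the cell groups cannot be told apart. Of the 43 members, 18 (41.9%) were higher in the macrophages of all 4 animals, compared with 18.4% of all genes. By slide, the median was 0.80 for replication and 1.26 for mitosis genes on the larger slide, which holds macrophage replicate 2, and 1.12 and 0.996 on the smaller, and 0.92 and 1.17 with the slide as a block. No member was called in those 3 fits by limma, where 0.0302%, 0.333% and 1.63% of all genes were called higher. At an unadjusted p under 0.05 were 7, 11 and 18 of the 43 members (16.3%, 25.6% and 41.9%), compared with 12.1%, 14.5% and 21.7% of all genes.

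Replication and mitosis genes did not keep the same order in each macrophage array. Relative to the microglia mean, the median over replication genes on macrophage replicates 1 to 4 was 1.21, -0.27, 1.14 and 1.55, and over mitosis genes 1.13, 0.088, 1.59 and 1.88. The mitosis median was thus the higher on replicates 2, 3 and 4 and the lower on replicate 1, and the difference between the lists was not tested. Members with E2F letters in the promoter (10 genes) had a median difference of 0.81, those with CHR letters (19 genes) 1.13, and the 12 with neither 1.11. The first 2 groups overlap, since 2 genes carry both kinds of letters. Tyms and Cdc6, which was near background, are among those with E2F letters.

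**Figure D5:**
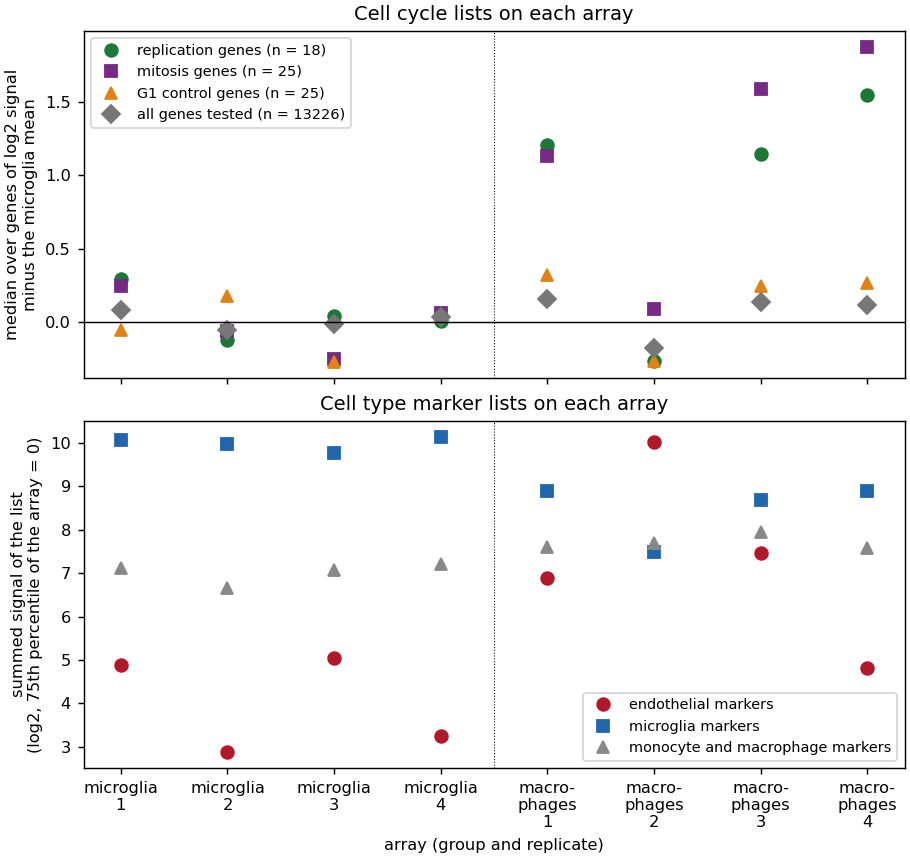
Upper panel: median over the genes of each list of the log2 signal minus the microglia mean (vertical axis) on each of the 8 arrays (horizontal axis). Lower panel: summed signal of marker lists on the same arrays (log2, array's 75th percentile at 0); macrophage replicate 2 has replication and mitosis medians of -0.27 and 0.088 and the highest endothelial sum.

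The marker signal of other cell types also differed between the arrays. Summed over 14 endothelial markers, of which Ly6c1 was the brightest on average, the log2 signal was 2.87 to 5.05 in microglia, 6.90, 7.48 and 4.82 in macrophage replicates 1, 3 and 4, and 10.03 in replicate 2. Ly6c1 made up much of the sum outside replicate 2, with 6.52, 6.83 and 3.99 in replicates 1, 3 and 4. The median over the 14 markers, which does not rest on 1 gene, was 1.13, 5.85, 2.19 and -2.09 in macrophage replicates 1 to 4. From 12 to 14 of these markers were above background in macrophages and 5 or 6 in microglia, and none was below background everywhere. Replicate 4, the highest macrophage array for 32 of the 43 members, had the lowest endothelial sum of the macrophages. Replicate 3 had a higher endothelial sum than replicate 1, and also a higher member median relative to the microglia mean (1.33 against 1.16). Erythroid markers (7 genes, of which 2 were above background nowhere) summed to 0.82 to 1.75 in microglia, 2.68 to 3.46 in macrophage replicates 1, 3 and 4 and 7.92 in replicate 2. Among them Hba-a1, a haemoglobin chain, measured 7.64 in replicate 2 and 1.59, 2.86 and 1.16 in replicates 1, 3 and 4, while Epor was called lower in macrophages. NK cell markers, of which Prf1 was the brightest on average, summed to 0.075 to 0.52, 0.89 to 2.09 and 4.49. Neutrophil markers, of which Mmp8 was the brightest on average, summed to 4.54 to 5.48 in microglia and 6.36 to 7.11 in macrophages. Mmp8 alone measured 6.69, 3.80, 5.79 and 5.53 in macrophage replicates 1 to 4, with replicate 2 the lowest. The median over the 10 neutrophil markers went the other way, at -2.22, 3.77, 0.96 and 1.83, with replicate 2 the highest. None of the 6 neutrophil markers tested was called, and 2 of the 10 were above background nowhere. The T cell sum, with Il7r as the brightest gene, was 0.38 to 0.74 in microglia and 1.13 to 1.62 in macrophage replicates 1, 3 and 4. It overlapped between the groups only through replicate 2, at 0.51. Il7r differed by 0.78 and Cd3e, Cd4, Lck and Cd8a by -0.042, -0.063, -0.60 and -0.90, with none of the 5 called. Without macrophage replicate 2, Il7r was called (limma adjusted p = 0.00447). The microglia markers were at 9.78 to 10.1 in microglia, 8.69 to 8.90 in macrophage replicates 1, 3 and 4 and 7.50 in replicate 2. The part of these cells in the results was not tested.

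The wider machinery was read from 2 further lists that hold no member and were also chosen with earlier results of these data known. Of 42 other replication genes tested (of 47), 4 were called higher (9.52%, beside 2.99% of all genes) and none lower. Among the 4 were Dnmt1, Tipin and Wdhd1, and the list median was 0.68. Of 52 other mitosis genes tested (of 60), 7 were called higher (13.5%, beside the same 2.99%) and none lower. The 7 were Mybl2, Cep55, Smc4, Kif4, Cdc25b, Ndc80 and Zwilch, and the list median was 1.03. Of 25 G1 control genes tested (of 26), limma called none, with a median of 0.27. At an unadjusted limma p under 0.05 were 5 of them (20%), compared with 24.5% of all genes. The list was mixed: E2f1, E2f2 and E2f8 differed by 1.25, 2.66 and 2.16, and 9 of the 25 had a lower mean in macrophages. E2f2 was above background on only 1 microglia array. With quantile normalization and with the authors' deposited table, 1 G1 gene was called lower, beside 5.14% and 5.13% of all genes.

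Dnmt1, the maintenance DNA methyltransferase, measured 1.04, 0.91, 1.02 and 0.95 in microglia and 2.92, 1.80, 2.97 and 2.93 in macrophages. Replicate 2 was the lowest macrophage array but above all microglia (difference 1.67 ± 0.30, SE, n = 4 a group; limma adjusted p = 0.0129).

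Mybl2, B-Myb, a factor that activates mitosis genes, differed by 2.33 ± 0.49 (SE, n = 4 a group; limma adjusted p = 0.0259), and was above background on only 2 of the 4 microglia arrays. It had its highest macrophage value in replicate 2, at 0.070, against -1.59, -1.99 and -1.01. Cep55, which acts at the last cut between daughter cells, differed by 1.98 ± 0.42 (SE, n = 4 a group; limma adjusted p = 0.0263). Dnmt1 and Smc4, a condensin subunit, were called in all 8 fits that left out 1 array, which no member was. Without macrophage replicate 2, 14 of the 42, 26 of the 52 and 3 of the 25 G1 genes (12%) were called higher, beside 9.44% of all genes, which the G1 share is near.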

How the data were processed

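Expression was measured on 8 one-colour Agilent arrays of Cy3-labelled cDNA from sorted microglia and macrophages of 4 mice. Per the labels' protocols, mRNA was bound on magnetic beads and its cDNA amplified by a global PCR (SuperAmp). Per the file headers, Agilent Feature Extraction 10.7.3.1 made the processed signal, a background-subtracted intensity that the authors deposited without normalization between arrays. The authors also deposited log2 values of the same arrays (column medians 4.604 to 4.606, correlation with the own array 0.996 to 1.000), whose normalization is not given in the sources used here, and these served as an alternative.

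Of 62976 spots, 3671 controls and the spots flagged as outliers were left out, and 59305 measure genes. Spots of a probe were averaged as log2 values, from which the array's 75th percentile was taken off. Probes were named through RefSeq accession (27598), symbol (3493) or synonym (393) of the GRCm38.p6 gene table, and 24197 of 55681 stayed unnamed. A probe passed if well above background on at least 4 of 8 arrays (29359 did). Where several probes of a gene passed, the brightest on average was used. Probe coordinates are those of the array files (mm9), and exons or UTRs under the probes were not looked up. On the 8 arrays 45.7% to 57.1% of probes were above background and no gene spot was saturated. The number of arrays limits the precision.

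Groups were compared with lmFit and eBayes of limma 3.58.1 (run in R 4.3.3) by two-sided tests, p-values being adjusted by Benjamini and Hochberg's method over 13226 genes with a threshold of 0.05. The fit was tested on simulated data. Python 3.11.15, numpy 2.4.6 and pandas 2.3.3 were used for tables. The animal letters pair the arrays, since each animal gave both. Deviations of the paired arrays from their group means correlated at 0.071, 0.11, 0.086 and -0.0015 for animals A to D. The labels do not say that replicates were processed separately, beyond coming from different animals.

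The members and lists were chosen with earlier results of these data known. Named array by array are every called member and Mcm2, Mcm5, Pcna, Cdc6, Rrm2, Tyms, Ccne1, Ccna2, Ccnb1, Top2a, Mki67, Birc5, Cdc20 and Plk1. Of each further list, the 2 called genes with the largest difference are described, apart from items not reported here by name. Alternatives were 3 other scalings, another background correction, the deposited log2 table, 2 other filters, the mean of a gene's probes, the animal or slide as a block, each slide alone and leaving out each array.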

Additional observations from a re-analysis of the deposited data

Results flagged for a closer look

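In groups of 4 arrays, an array was marked where its gap to the nearest other array took up more of the group's range than Dixon's 95% critical value allows. Of 86 groups, 2 for each of the 43 members, 11 were marked, where chance marks about 1 in 20 of independent groups. These groups share the same 8 arrays and are not independent, and the share marked over all genes is not given here. In 8 of the 11, macrophage replicate 2 was the lowest macrophage array. Marked or not, it was the lowest for 49.7% of all genes tested.

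Among replication genes it measured -0.0050 for Mcm7, where the other macrophage arrays lay at 1.42 to 1.59. It measured -0.73 for Fen1 (others 1.27 to 1.52), -1.55 for Lig1 (others 0.56 to 0.85) and -3.64 for Ccne1 (others -0.29 to -0.099). Among mitosis genes it measured 0.47 for Top2a (others 2.41 to 2.80), -6.44 for Bub1 (others -0.86 to 0.16), -0.96 for Ttk (others 1.27 to 1.43) and 0.70 for Ube2c (others 1.75 to 1.96).

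Microglia replicate 1 was the highest microglia array for Birc5, at 2.64 with the others at 1.42 to 1.45, and for Cenpe, at 0.60 with the others at -1.46 to -1.33. Macrophage replicate 4 was the highest for Tacc3, a protein of spindle microtubules, at 1.81 with the others at -0.072 to 0.20.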

How the results depend on the processing

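Under the 20 other settings, the median differences of both member lists stayed above 0. Of 1074 values of the members and the further called genes, 919 kept their direction and side of the threshold, 120 lost a call, 31 gained one and 4 turned their direction, all in genes that were not called. Bub1 ranged from -0.23 (without macrophage replicate 4) to 1.97 and Ncapg from -0.17 (without microglia replicate 1) to 0.74 with 1 array left out. Ncapg was at -0.41 within the larger slide and Prc1 at -0.42 within the smaller. Other scalings moved the median of all genes from 0.04 to 0.24 (median centring) and -0.12 (percentile over probes detected on all arrays). Calls over all genes, 396 higher and 567 lower, became 682 and 470 with the first and 343 and 854 with the second. Higher calls were 238 with no filter on dim probes, 233 with the animal as a replicate block, 215 with a slide block, 4 within the larger slide alone and 44 within the smaller. Lower calls were 343 with probes above background on all 8 arrays, 373 with the replicate block, 93 within the larger slide and 169 within the smaller. Leaving out 1 array gave 168 to 1249 higher and 324 to 966 lower. Of replication members, limma called 0 with no filter, with the replicate block, with the slide as a block and on either slide, and 0 to 11 with 1 array left out. Of mitosis members it called 4 with normexp background, 1 with no filter, 0 with the slide as a block and on either slide, and 0 to 16 with 1 array left out. Of further replication genes it called 7 with median centring, 0 on either slide and 2 to 14 with 1 array left out, and of further mitosis genes 3 with no filter, 1 with the slide as a block, 0 on either slide and 1 to 26. Among G1 genes, 1 was higher with median centring, normexp background, probes on all 8 arrays, the replicate block or the smaller slide, 1 was lower with quantile normalization and with the authors' deposited table, and 0 to 3 were higher with 1 array left out. On the smaller slide the single macrophage array was assumed to vary like the microglia. The cause of these changes was not tested, apart from fewer arrays or genes where a setting removes them. Dim members (Cdc6, Aurka, Ncapg, Anln and Bub1) were near background on some arrays, which limits their differences.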
